A study of Mus musculus with 2 samples.

Results

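The genes described here encode the proteasome of cortical thymic epithelial cells (cTECs), with the thymoproteasome subunit Psmb11 that these cells are known for. They were chosen by name: subunits of the 20S core with its immune and thymic variants, subunits of the 19S cap, assembly factors, activators and an inhibitor. All 44 listed genes were found among the 19938 genes with a probe set of 1 gene symbol, and 44 of 44 passed the filter on low values. Expression was measured on 2 Affymetrix arrays. One array held cTEC RNA labelled as from 7 mice carrying the Aire transgene (Tg), and the other cTEC RNA labelled as from 5 control mice (non-Tg), read here as pools of animals. Both groups were NOD mice, a strain prone to autoimmune diabetes, at day 7. In the semi-knockin Tg strain the promoter of Psmb11, which is active in the cortex of the thymus, drives Aire, the regulator of peripheral-tissue genes in the medulla. The control label names no further allele. No source used here describes the cell isolation. With 1 array per group there was no replicate error and no p-value, so every ratio below describes this pair of RNA pools.

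The 20S proteasome is a barrel of outer rings of alpha subunits and inner rings of beta subunits, and it cuts proteins into peptides, part of which are loaded on MHC class I molecules. The active sites sit on the subunits β1 (Psmb6), β2 (Psmb7) and β5 (Psmb5). Immune cells and cells exposed to interferon-gamma replace them with β1i (Psmb9), β2i (Psmb10) and β5i (Psmb8), which gives the immunoproteasome. cTECs place β5t (Psmb11) at the β5 position, next to β1i and β2i. This thymoproteasome is known for its part in the positive selection of CD8+ T cells. The 19S cap binds and unfolds proteins tagged with ubiquitin, and the activators PA28 and PA200 open the barrel without it.

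Promoter sequences are shown for the genes on which the comparison of catalytic subunits turns. They come from RefSeq, build GRCm38.p6, which is the sequence of another mouse strain, C57BL/6J, and NOD mice can differ from it. Psmb11 is shown because its promoter drives the transgene. Its 250 bases before the annotated start lie at chr14:54625060-54625309 on the plus strand, and capitals mark the letters GACGC, the core recognised by the thymic epithelial factor FOXN1, here on the opposite strand. Psmb5 is shown as the constitutive counterpart and close neighbour of Psmb11. Its 250 bases lie at chr14:54617996-54618245 on the minus strand, and capitals mark TGACNNNGC, a form of the antioxidant response element through which NFE2L1 acts on proteasome genes. Psmb9 and Tap1, which encodes a subunit of the peptide transporter, are transcribed away from a shared promoter. The 225 bases between their annotated starts lie at chr17:34187331-34187555, written on the plus strand towards Tap1, with the GC box GGGCGG in capitals, here on the opposite strand.
Psmb11: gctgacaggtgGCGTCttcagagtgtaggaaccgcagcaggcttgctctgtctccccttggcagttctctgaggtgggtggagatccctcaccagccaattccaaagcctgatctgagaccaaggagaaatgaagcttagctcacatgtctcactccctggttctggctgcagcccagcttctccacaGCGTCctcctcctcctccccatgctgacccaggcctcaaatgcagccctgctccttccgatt
Psmb5: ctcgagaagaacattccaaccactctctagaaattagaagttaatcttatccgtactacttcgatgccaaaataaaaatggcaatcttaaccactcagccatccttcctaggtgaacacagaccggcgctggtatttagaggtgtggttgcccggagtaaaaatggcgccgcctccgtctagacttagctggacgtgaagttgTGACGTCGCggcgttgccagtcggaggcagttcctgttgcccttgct
Psmb9 and Tap1: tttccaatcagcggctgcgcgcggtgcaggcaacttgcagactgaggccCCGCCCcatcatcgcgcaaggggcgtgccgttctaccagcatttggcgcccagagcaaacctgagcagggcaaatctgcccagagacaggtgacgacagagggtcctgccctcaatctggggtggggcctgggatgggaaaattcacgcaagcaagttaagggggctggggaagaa

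In the Psmb11 window GACGC began 239 and 62 bases before the start. In the Psmb5 window TGACNNNGC began 47 bases before the start. The motifs were searched on both strands in the 250 bases before every annotated start, 41 windows for the 38 proteasome genes that had an entry and 32851 windows in all. GACGC was present in 39% of the proteasome windows and in 22.6% of all windows. TGACNNNGC was present in 12.2% against 10.2%, and GGGCGG in 56.1% against 32.7%. Of the proteasome genes, Psmb8 alone held TTCNNNGAA, the letters of a gamma-activated site (2.44% of proteasome windows, 7.02% of all). An interferon response element was found for Psmb3, Psmd4 and Psmd9 (7.32% against 2.98%). Base composition was not matched between these windows, and a match of letters is no evidence of binding.

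Levels are the deposited values on a log2 scale, and each log2 ratio is Tg minus non-Tg, so that 1 stands for a 2-fold higher level on the Tg array. Aire, the check of the labels, stood at 7.33 in Tg against 6.06 in non-Tg, giving a log2 ratio of 1.28. No proteasome gene came near that ratio. Of the 44 genes, 0 were 2-fold higher and 0 were 2-fold lower, where 1.17% of the 11422 genes past the filter were 2-fold apart, 0.797% higher and 0.376% lower. At 1.5-fold, 1 of 44 was apart (2.27%), against 7.86% of all genes. Within 1.25-fold lay 36 of the 44 (81.8%), against 72.9% of all genes. Ratios above 0 were found for 20 of the 44 and for 50.6% of all genes. Over the settings tried the count ran from 17, under quantile normalization, to 23, after centring each array on its median. The share of all genes was 49.4% and 54.1% in these 2 settings. The log2 ratios ran from -0.77 for Psmd10 to 0.55 for Psme4. Their median was -0.01, where that of all genes past the filter was 0.01, and their SD was 0.250 against 0.331.

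Most proteasome genes gave bright signals, and ratios of bright genes were narrower on these arrays. Among genes with a mean log2 level of at least 8, 35 proteasome genes had an SD of 0.233, where all 1814 such genes had 0.284. Of these 35, 1 was 1.5-fold apart, against 4.74% of all bright genes, and 0 were 2-fold apart, against 0.827%. Ratios above 0 were found for 14 of the 35, where 59.5% of all bright genes lay above 0. Over the settings tried the count ran from 13, under quantile normalization among others, to 17 after centring each array on its median. The share of all bright genes was 52.5% under quantile normalization and 63.1% after centring. Another measure of error is the SD between probe sets of 1 gene, 0.302 for the ratio of a single probe set over 658 genes. It leaves out variation between animals, pools and amplifications. It covers genes of any level past the filter and is wider than the 0.284 of all bright genes, so it is a loose scale for bright genes. The ratios of 9 of the 44 proteasome genes were wider than this probe set SD: Psmd10, Psme4, Psmd3, Psmb5, Psmb7, Psmb11, Psme1, Psmd8 and Psmc4. Such widths were common, since 28.9% of all genes past the filter had a ratio at least as wide as that of Psmc4 (-0.31), the narrowest of the 9.

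**Figure D1:**
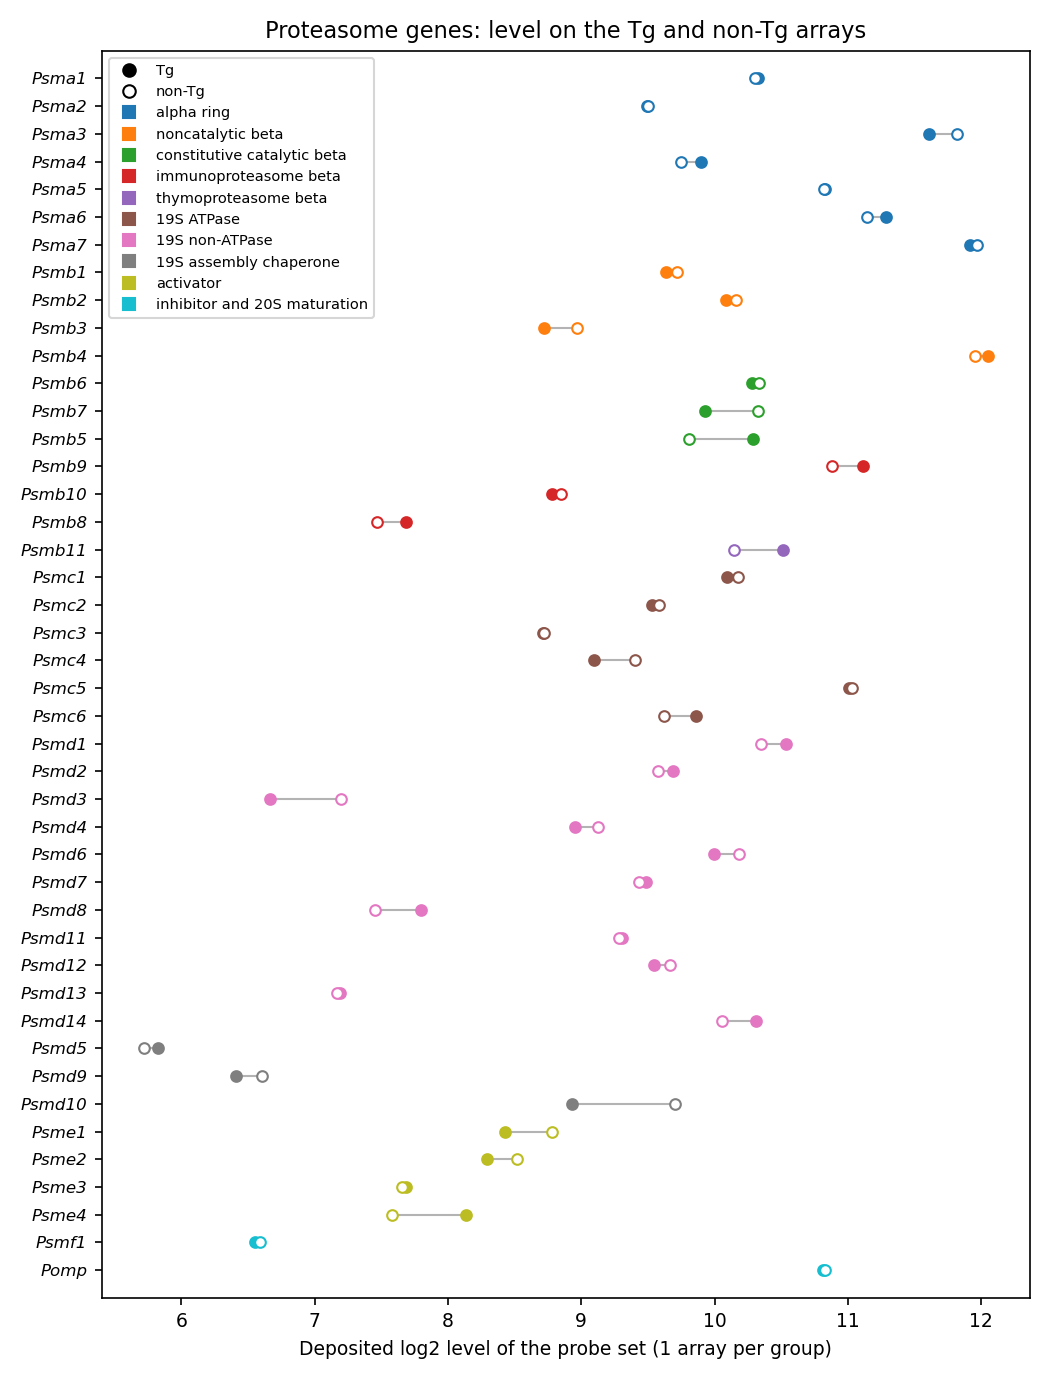
Deposited log2 level (horizontal axis) of the probe set used for each of the 44 proteasome genes (vertical axis), with filled points for the Tg array, open points for the non-Tg array and colours for subunit classes. The points of a gene lie close together for most genes, and the longest gap is that of Psmd10, at 8.93 in Tg against 9.71 in non-Tg.

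**Figure D2:**
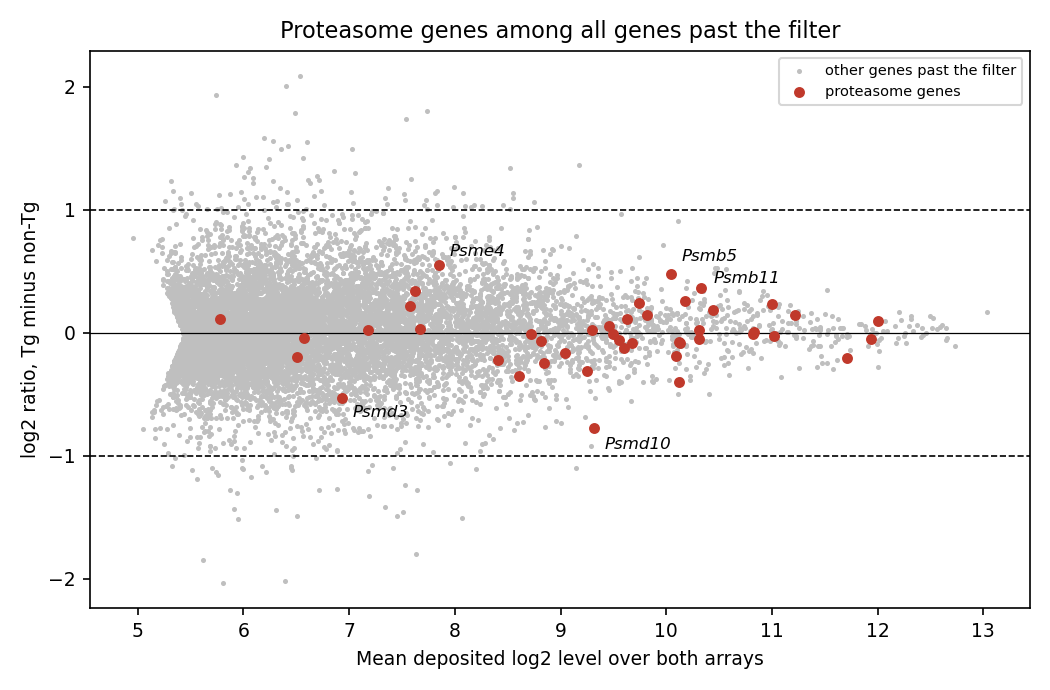
The log2 ratio, Tg minus non-Tg, against the mean log2 level over both arrays for all 11422 genes past the filter (grey) and the 44 proteasome genes (red). The dashed lines mark 2-fold, and all 44 red points lie between them.

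The β5 position has 3 alternative subunits, and all of them read higher on the Tg array. Psmb11 (β5t) stood at 10.51 in Tg against 10.15 in non-Tg, giving a log2 ratio of 0.37 or 1.29-fold. Psmb5 (β5) stood at 10.29 in Tg against 9.81 in non-Tg, giving a log2 ratio of 0.48 or 1.39-fold, the second highest of the 44 genes. Psmb8 (β5i) stood at 7.68 in Tg against 7.47 in non-Tg, giving a log2 ratio of 0.22 or 1.16-fold. Ratios as wide as that of Psmb5, in either direction, were found for 12.9% of all genes past the filter, as wide as that of Psmb11 for 21.4%, and as wide as that of Psmb8 for 43.9%.

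The thymic and immune β5 subunits had lower ratios than the constitutive one. The log2 ratio of Psmb11 minus that of Psmb5 was -0.11, and the ratio of Psmb8 minus that of Psmb5 was -0.26. Both differences lay within 0.427, the SD that the probe set error gives for a difference of 2 ratios. That SD comes from genes of any level past the filter, so lying within it does not show that a difference is error. Levels of different probe sets depend on their probes as well as on the transcripts, so the levels of Psmb11, Psmb5 and Psmb8 give no ratio of the subunits to each other within a sample.

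At the β1 and β2 positions the constitutive subunits read lower on the Tg array and the immune subunits took either side of 0. Psmb6 (β1) stood at 10.28 in Tg against 10.33 in non-Tg, giving a log2 ratio of -0.05, and Psmb9 (β1i) at 11.12 and 10.88, a log2 ratio of 0.23. Psmb7 (β2) stood at 9.93 in Tg against 10.32 in non-Tg, giving a log2 ratio of -0.40 or 1.32-fold, the lowest of the catalytic subunits. Psmb10 (β2i) stood at 8.78 in Tg against 8.85 in non-Tg, giving a log2 ratio of -0.07. Relative to its counterpart, Psmb9 was thus higher by 0.28 and Psmb10 by 0.33, again within 0.427, with the same limit. The median of the 3 immunoproteasome subunits was 0.22 and that of the 3 constitutive catalytic subunits was -0.05, whose members spanned -0.40 to 0.48. The groups overlapped, since Psmb5 lay above and Psmb10 below the other group's median.

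The structural 20S subunits were nearly level between the arrays. The 7 alpha subunits, which form the outer rings and their gate, had levels from 9.49 to 11.91 in Tg and from 9.50 to 11.97 in non-Tg. Their ratios ran from -0.21 for Psma3 to 0.15 for Psma4, and all 7 lay within 1.25-fold. The alpha median was 0.01 and turned to -0.02 under quantile normalization. The 4 beta subunits without an active site ran from -0.25 for Psmb3 to 0.10 for Psmb4, with a median of -0.08, and all 4 lay within 1.25-fold. Psma4 stood at 9.89 in Tg against 9.75 in non-Tg, and Psma3 at 11.61 and 11.82. Psmb3 stood at 8.72 in Tg against 8.97 in non-Tg, and Psmb4, the brightest of the 44 genes on the Tg array, at 12.05 and 11.95.

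**Figure D3:**
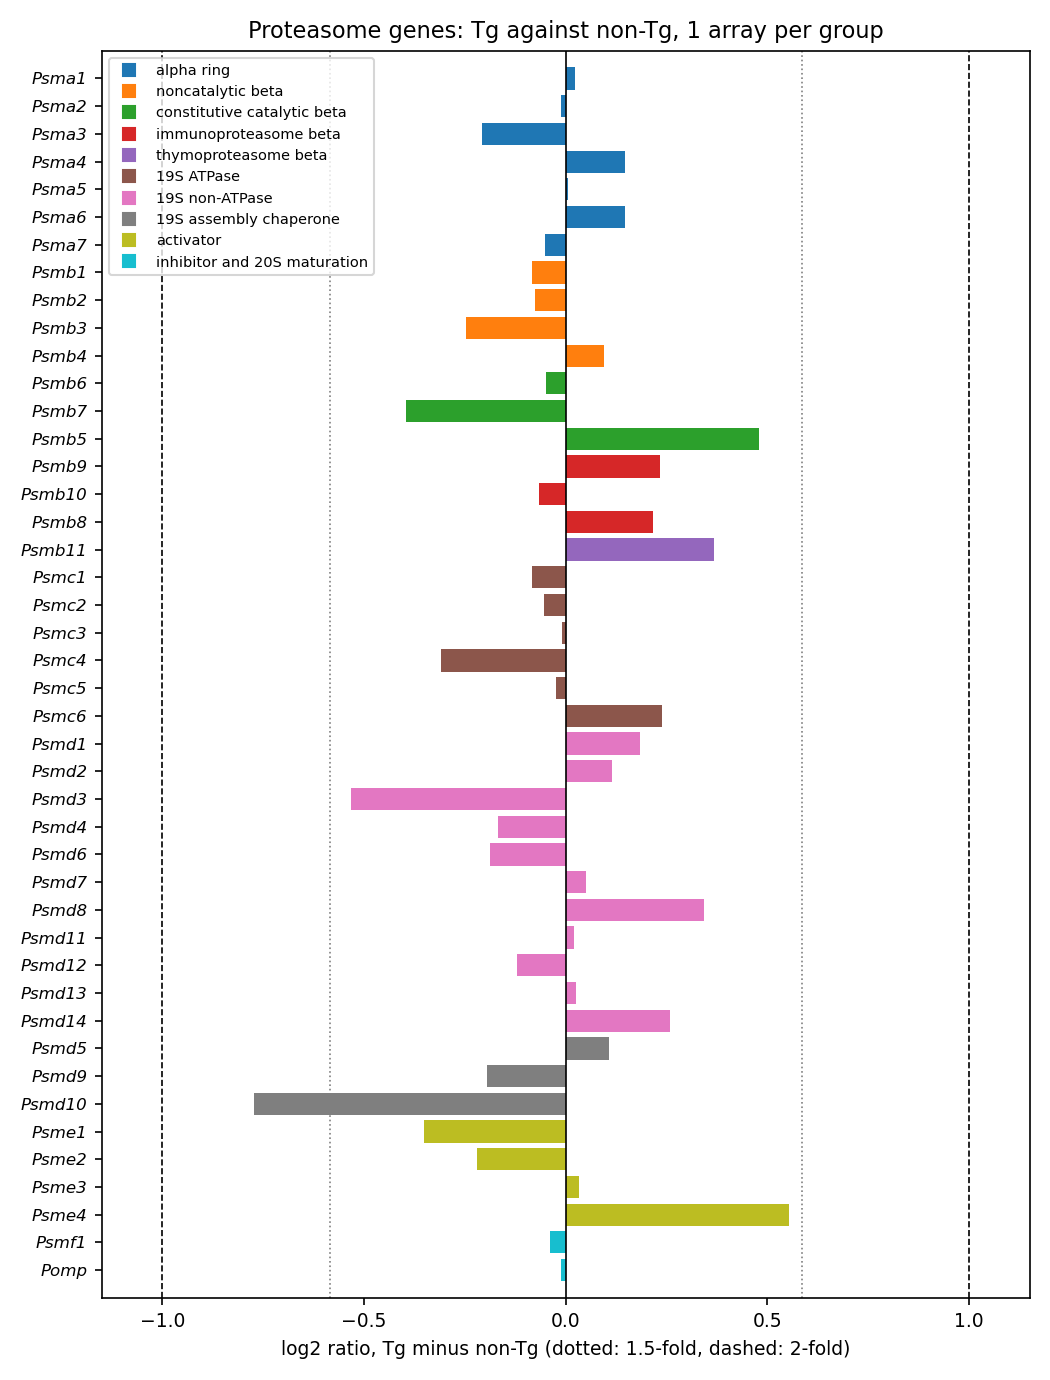
Log2 ratio, Tg minus non-Tg (horizontal bars), of each of the 44 proteasome genes, coloured by subunit class, with dotted lines at 1.5-fold and dashed lines at 2-fold. The bar of Psmd10 at -0.77 is the only one past a dotted line, and no bar reaches a dashed line.

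The 6 ATPases of the 19S base, which unfold substrates and feed them into the barrel, had a median of -0.04, and 6 of 6 lay within 1.25-fold. Psmc4 had the lowest ratio, -0.31, at 9.10 in Tg against 9.40 in non-Tg. Psmc6 had the highest, 0.24, at 9.86 in Tg against 9.62 in non-Tg, and it was the only one of the 6 above 0 on the values as deposited.

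The 11 other subunits of the cap had a median of 0.02, with 7 ratios above 0 and 4 below, and Psmd13 moved from above to below 0 under quantile normalization. The lid subunit gene Psmd3 had the lowest, -0.53, at 6.67 in Tg against 7.20 in non-Tg, and 9.95% of all genes had a ratio at least as wide. Psmd8 had the highest, 0.34, at 7.79 in Tg against 7.45 in non-Tg. Psmd8 is a lid subunit too, so the lid held both ends of the range. Psmd14, the deubiquitinase that removes ubiquitin chains from substrates, stood at 10.31 in Tg against 10.05 in non-Tg, giving a log2 ratio of 0.26. Psmd4, a ubiquitin receptor, stood at 8.95 in Tg against 9.12 in non-Tg, giving a log2 ratio of -0.17. The large base subunits Psmd1 and Psmd2 had ratios of 0.19 and 0.11. Psmd6, Psmd7, Psmd11, Psmd12 and Psmd13 lay between -0.19 and 0.05.

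Of the chaperones that assemble the 19S base, Psmd10 (gankyrin) was the only gene of the 44 beyond 1.5-fold. It stood at 8.93 in Tg against 9.71 in non-Tg, giving a log2 ratio of -0.77 or 1.71-fold lower in Tg, and 3.16% of all genes had a ratio at least as wide. Lower levels by 1.5-fold or more were found for 3.13% of all genes past the filter. The ratio ran from -0.82 to -0.75 over the settings tried. Psmd9, a chaperone of the same step, had -0.19 (6.41 in Tg, 6.61 in non-Tg), and Psmd5 had 0.11 (5.83 in Tg, 5.72 in non-Tg), so that the 3 chaperones did not share a direction. Psmd10 lies on the X chromosome. The arrays also differed in sex-linked RNA: Xist, the RNA of the inactive X chromosome, stood at 7.78 in Tg against 6.28 in non-Tg, and the Y-linked Eif2s3y at 6.40 and 7.36. The other 340 X-linked genes past the filter had a median log2 ratio of 0.01, and the part of this difference in the Psmd10 value was not tested.

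The activators differed from each other. Psme1 and Psme2, the alpha and beta subunits of the interferon-inducible PA28, both read lower in Tg. Psme1 stood at 8.43 in Tg against 8.78 in non-Tg, giving a log2 ratio of -0.35, and Psme2 at 8.29 and 8.52, a log2 ratio of -0.22. Psme3, the nuclear PA28 gamma, stood at 7.69 in Tg against 7.65 in non-Tg, giving a log2 ratio of 0.03. Psme4, which encodes the nuclear activator PA200, had the highest ratio of the 44 genes, 0.55 or 1.47-fold, at 8.13 in Tg against 7.58 in non-Tg, where 9.05% of all genes had a ratio at least as wide. The inhibitor gene Psmf1 stood at 6.55 in Tg against 6.59 in non-Tg. Pomp, the factor that matures the 20S core, stood at 10.81 in Tg against 10.82 in non-Tg.

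A second reading of the same gene was available for few members. Of the 44 genes, 39 had a single probe set of their own and 5 had more. The 3 probe sets of Psma3 gave -0.21, -0.23 and -0.23, and both probe sets of Psmb3 gave -0.25 and -0.24. Psmc1 gave -0.08 and -0.01, Psmd2 0.11 and 0.21, and Psma5 0.01 and -0.14, the only pair that differed in sign. For Psme2, a further probe set annotated to Psme2 and Psme2b together gave -0.20 beside -0.22. Probe sets of 1 gene may read the same stretch or a related copy, which was not tested. The genes with the widest ratios, Psmd10, Psme4, Psmd3 and Psmb5, had 1 probe set each.

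Genes around the proteasome were examined through lists of general knowledge, and their counts stand beside 7.86% of all genes past the filter that were 1.5-fold apart, 4.74% higher and 3.13% lower. The 4 other chaperones of the 20S core, Psmg1 to Psmg4, all had ratios below 0 (median -0.21, highest -0.06). Of all 11422 genes past the filter, 5531 had ratios below 0. Psmg1 was 1.59-fold lower, at 7.22 in Tg against 7.88 in non-Tg. Of 7 measured factors bound to the proteasome, 0 were beyond 1.5-fold, and they ran from -0.30 for Zfand5 to 0.29 for the quality-control scaffold Ecpas. Of 4 genes of proteasome gene regulation, 1 was beyond 1.5-fold: Sel1l, of the ubiquitin ligase complex of the endoplasmic reticulum, stood at 8.15 in Tg against 7.29 in non-Tg. Nfe2l2, a stress factor, was the lowest of them at -0.23. Of 7 measured ubiquitin genes and shuttles, 0 were beyond 1.5-fold, with Nploc4 at -0.39 and Ubqln1 at 0.20 at the ends.

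The interferon-gamma pathway, which induces the immune subunits and PA28, had 9 measured genes, with 1 beyond 1.5-fold in each direction, where 4.74% of all genes were that much higher and 3.13% that much lower. The receptor gene Ifngr1 stood at 8.63 in Tg against 9.37 in non-Tg, giving a log2 ratio of -0.74, and the regulator Irf2 at 7.83 and 7.23, a log2 ratio of 0.60. Of 10 measured genes of class I peptide supply, Tap1 alone was beyond 1.5-fold (4.74% of all genes in that direction), at 7.17 in Tg against 6.33 in non-Tg, giving a log2 ratio of 0.84. Psmb9, which shares the promoter sequence shown above with Tap1, had 0.23.

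Some of the proteasome genes lie close to each other, and their order on the chromosome was examined after the values had been seen. The annotated starts of Psmb5 and Psmb11 lie 7315 bases apart on chromosome 14, with 1 other gene listed between them. Of the 8 genes past the filter on each side of the pair, 10 of 16 had ratios above 0, with a median of 0.17, where 50.6% of all genes past the filter lay above 0. Of the 16, 3 were beyond 1.5-fold, all higher in Tg, where 4.74% of all genes were 1.5-fold higher and 7.86% were 1.5-fold apart in either direction. Those 3 were Ajuba (0.78, at 7.20 in Tg against 6.43 in non-Tg), Acin1 (0.86, at 8.06 and 7.19) and 4930579G18Rik (0.94, at 6.38 and 5.44). Ajuba was the nearest gene past the filter on the side of Psmb5. Further out on the side of Psmb5, Slc7a7 had 0.55, Mrpl52 0.40 and Oxa1l 0.29. On the other side of Psmb11 from Psmb5, Cdh24 had 0.25 and 1700123O20Rik 0.49. The lowest of the 16 were Haus4 at -0.15, Prmt5 at -0.15 and Ppp1r3e at -0.13.

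Psme1 and Psme2 also lie close together on chromosome 14, and of the 10 genes around them 0 were beyond 1.5-fold, with a median of 0.14. Psmb8, Psmb9, Tap1 and Tap2 lie together in the MHC on chromosome 17. All 4 had ratios above 0, from 0.12 for Tap2 to 0.84 for Tap1, where 50.6% of all genes past the filter lay above 0. Of the 10 genes around them, 5 lay above 0, and their median was 0.01. One of the 10, the class II gene H2-Eb2 at 0.89, was beyond 1.5-fold, where 7.86% of all genes were.

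**Figure D4:**
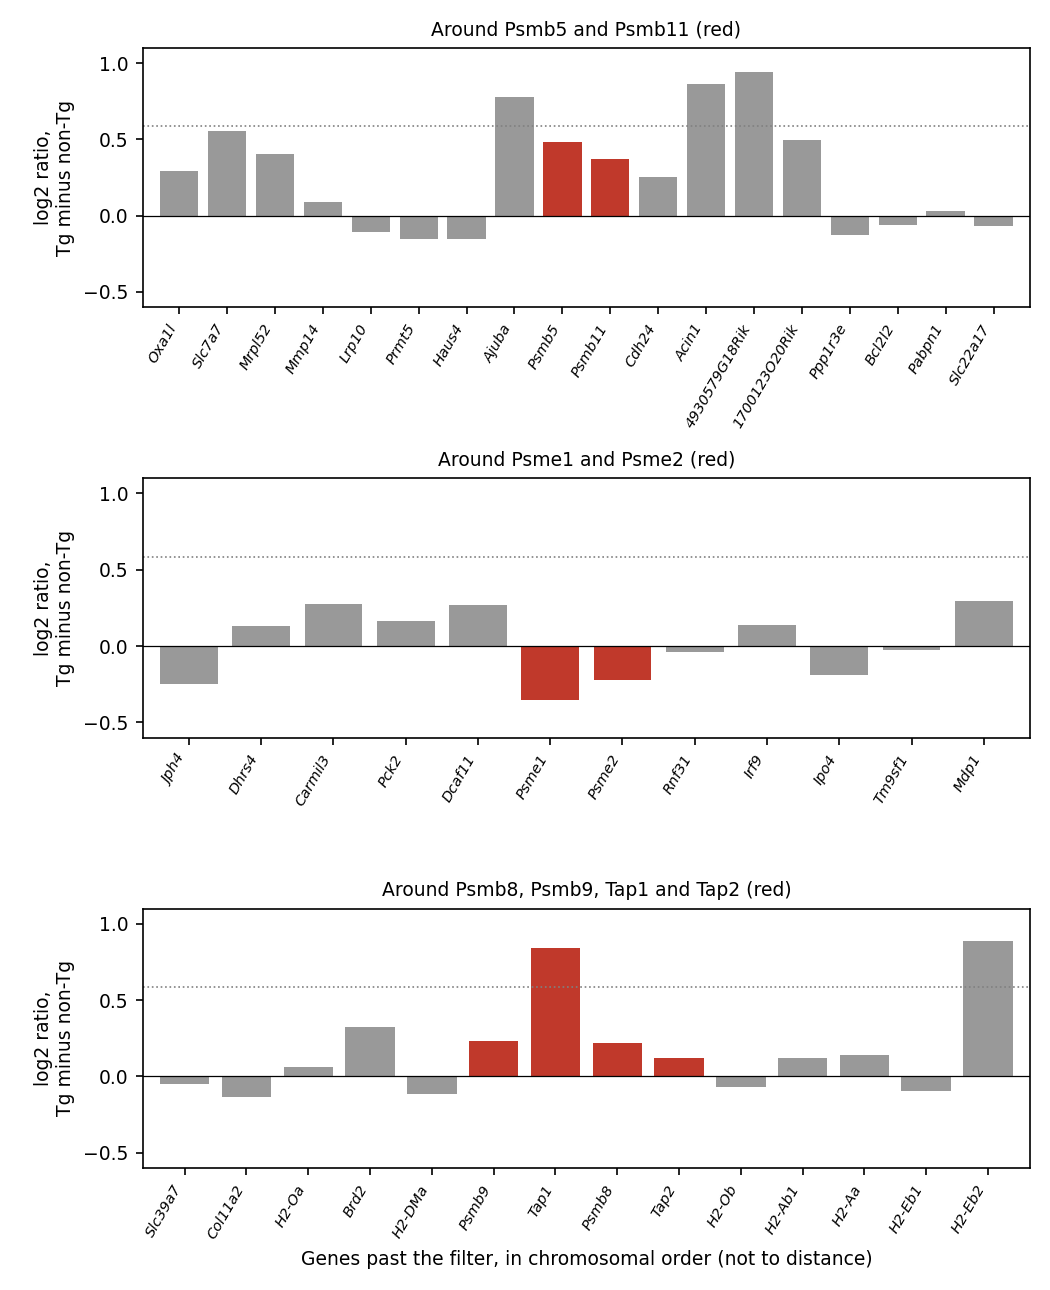
Log2 ratio, Tg minus non-Tg (bars), of genes past the filter in chromosomal order around Psmb5 and Psmb11 (top), Psme1 and Psme2 (middle), and Psmb8, Psmb9, Tap1 and Tap2 (bottom), with these genes in red, neighbours in grey and a dotted line at 1.5-fold higher. Ajuba, Acin1 and 4930579G18Rik pass the dotted line around Psmb5 and Psmb11, and Psme1 and Psme2 stand below it.

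The RNA on both arrays carried the markers of cTECs, but also those of thymocytes and some medullary markers. Of 14 cTEC markers, 14 passed the filter and 14 had ratios above 0 (0.01 to 0.57, median 0.13), or 12 after quantile normalization. Ratios above 0 were found for 50.6% of all genes past the filter, or 49.4% after quantile normalization. Among all genes with a mean level of at least 8 the shares were 59.5% and 52.5%. The cTEC markers, of which Psmb11 is one, had a summed level of 14.92 in Tg against 14.82 in non-Tg on the log2 scale. Each summed level here covers all measured markers of a list, those that did not pass the filter included. Of 12 measured thymocyte markers, 11 passed the filter, with ratios from -0.49 to 0.21. The summed level of all 12 was 12.36 in Tg against 12.48 in non-Tg. Of 13 measured markers of macrophages and dendritic cells, 3 passed, all below 0, and the summed level of all 13 was 9.60 and 9.75. Of 6 measured B cell markers, 2 passed, and the summed level of all 6 was 7.68 and 7.81. Of 11 measured medullary markers, 9 passed, and those other than the transgene had ratios between -0.39 and 0.34. Levels of the 9 ran from 5.54 to 10.73 in Tg and from 5.61 to 10.39 in non-Tg, with Krt5 the brightest. The summed level of all 11, Aire included, was 11.66 in Tg against 11.44 in non-Tg. The 8 fibroblast markers, of which 5 passed, had a summed level of 9.71 in Tg against 9.48 in non-Tg, and endothelial markers 9.29 and 9.26. Most proteasome genes are active in all of these cells, whereas Psmb11 is counted here as a cTEC marker. Each array read RNA of many cells together, so fewer cells of a type and less RNA per cell cannot be told apart. The part of these marker differences in the proteasome ratios was not tested.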

How the data were processed

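The deposited table holds 1 log2 value per probe set for 28856 probe sets and 2 arrays. Per the labels' protocols, 400 pg of total RNA was amplified and 5.5 µg of cDNA was labelled. The log2 scale was inferred from the range of the deposited values, 4.22 to 13.7. No source used here states the authors' normalization or software. Depth has no meaning for arrays, and 1 array per group limits the precision.

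Genes were named through GEO's platform annotation: 21789 probe sets had 1 symbol, 1621 several and 5446 none here. The probe set with the highest mean represented each gene. Values under the 25th percentile (4.80) were raised to it for ratios. A gene passed the filter if it reached the 50th percentile on at least 1 array (5.43 in Tg, 5.45 in non-Tg). A rule of size, 2-fold with 1.5-fold beside it, stood in for a test. A RefSeq table (GRCm38.p6) gave gene order and chromosomes. The members and lists were chosen with earlier results of these data known.

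Named were all catalytic subunits, activators, Psmf1, Pomp, the extremes of each other class, and genes beyond 1.5-fold or at the ends of related lists. Other genes were named after their values were seen, among them Psmd1, Psmd4, Psmd14 and the chromosomal neighbours. The rule was tested on simulated data. Alternatives were scaling, probe set choice, floor and filter. Python 3.11.15 was used with numpy 2.4.6, pandas 2.3.3 and matplotlib 3.10.9.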

Additional observations from a re-analysis of the deposited data

How the results depend on the processing

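Over 6 alternatives (centring each array on its median, quantile normalization, averaging the probe sets of a gene, no floor, no filter, and a filter at the 75th percentile), the count of proteasome genes 2-fold apart stayed at 0, and Psmd10 was the only one beyond 1.5-fold in each. The median of all 44 genes ran from -0.04 to 0.01. The sign of 38 genes was the same in all settings, and that of Pomp, Psma2, Psma5, Psmc3, Psmd13 and Psme3, all within 0.1 of 0 as deposited, was not. With the filter at the 75th percentile, 43 genes passed, and without Psmd5 the median of the 19S assembly chaperones moved from -0.19 to -0.48. The number of genes with ratios above 0 was 20 as deposited, 23 after centring and 17 after quantile normalization. No paired analysis was possible because each group had 1 array, and for the same reason no array could be left out. The bounded low end of the values limits what can be seen of dim genes such as Psmd5.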
